A study of Mus musculus with 12 samples.

Results

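The noncoding RNA 7SK, the proteins that bind it, the elongation kinase P-TEFb and the largest subunit of RNA polymerase II were followed in sorted mouse hematopoietic stem cells (HSCs). The 8 genes are Rn7sk, Hexim1, Larp7, Mepce, Cdk9, Ccnt1, Ccnt2 and Polr2a, taken by gene symbol from the 46986 features of the expression table. All 8 reached 1 RPKM, a read count scaled by transcript length and library size, in 3 or more libraries. They were chosen by name with the group levels of Rn7sk and Polr2a in these libraries known, so their own differences are given as a description with a standard error (SE) and without p-values.

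RNA was sequenced from marrow HSCs of C57BL/6 mice aged 12 weeks, in 12 libraries of 2000 sorted cells each. The 4 groups had 3 libraries each. ABX 5-FU mice received ampicillin, neomycin, metronidazole and vancomycin in their drinking water and a single intravenous dose of 200 mg/kg 5-fluorouracil (5-FU), and were sampled on day 12. ABX mice received the 4 antibiotics, given for 4 to 6 weeks, without 5-FU. Ctrl 5-FU mice received 5-FU without antibiotics and were also sampled on day 12, and Ctrl mice received neither. 5-FU is a pyrimidine analog that kills dividing cells, after which HSCs regenerate the marrow. The antibiotics deplete intestinal bacteria. No label says that replicate libraries are separate animals, so every p-value below measures only the spread between libraries.

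P-TEFb is a kinase made of CDK9 and a cyclin T. It phosphorylates the C-terminal domain (CTD) of the largest polymerase II subunit, the pausing factor NELF and the pausing factor DSIF, and so lets paused polymerase elongate. The small nuclear RNA 7SK, made by RNA polymerase III, holds P-TEFb inactive together with HEXIM proteins, while LARP7 and the capping enzyme MEPCE stay bound to 7SK and protect it.

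Rn7sk lies on mouse chromosome 9 (mm10), chr9:78175303-78175633 on the minus strand, as 1 exon of 331 bases with no overlapping gene. Its sequence is shown because it is the member with the largest difference between groups. It is from the GENCODE M21 transcripts, written 5′ to 3′ with T for U, and capitals mark each GATC, the repeat that in human 7SK forms part of the site bound by HEXIM1.
Rn7sk, bases 1 to 300: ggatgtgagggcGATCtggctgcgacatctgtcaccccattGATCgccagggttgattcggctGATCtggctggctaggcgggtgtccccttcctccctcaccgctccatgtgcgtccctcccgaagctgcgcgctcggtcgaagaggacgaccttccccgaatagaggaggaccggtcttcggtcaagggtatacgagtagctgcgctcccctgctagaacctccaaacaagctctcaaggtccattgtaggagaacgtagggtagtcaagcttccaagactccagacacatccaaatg
GATC, a palindrome that reads the same on both strands, started at positions 13, 42 and 64 of Rn7sk. The same letters were in 75.5% of 339 small RNA transcripts of 250 to 400 bases in that annotation, and 21.2% of them held at least 3. The longest run of A in Rn7sk was 3 bases. The libraries were primed on poly(A) tails (SMART-Seq v4), and 7SK is not polyadenylated in textbook descriptions.

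Depth was estimated from the RPKM that 1 read is worth. It came to 31.8 to 38.6 M reads in ABX 5-FU libraries, 29.2 to 37.8 M in ABX, 27.9 to 54.1 M in Ctrl 5-FU and 44.2 to 54.8 M in Ctrl libraries, so ABX and Ctrl libraries did not overlap in depth. Ctrl 5-FU replicate 1 correlated at 0.972 and 0.971 with its fellow replicates, which correlated at 0.989. Of 11 HSC markers, 9 reached 1 RPKM in at least 3 libraries. The B cell genes Ms4a1 and Pax5 and the T and NK cell genes Cd3e, Cd3g, Cd8a and Ncr1 were listed at 0 in every library, whereas the B cell gene Cd79b measured 8.56 to 14.97 RPKM and the NK cell gene Klrb1c 0.579 to 6.41 RPKM. In sorted cells taken as bulk RNA, fewer cells of a type and less RNA per cell cannot be told apart.

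Rn7sk was higher in both antibiotic groups than in the groups without antibiotics. It measured 48.4, 38.2 and 46.1 RPKM in the ABX 5-FU libraries, 49.2, 54.0 and 53.7 RPKM in ABX, 21.4, 19.4 and 13.3 RPKM in Ctrl 5-FU, and 13.5, 17.6 and 16.4 RPKM in Ctrl libraries. All 6 libraries with antibiotics lay above all 6 without. The ABX mean was 3.30 times the Ctrl mean, and the ratios of single ABX to single Ctrl libraries ran from 2.80 to 3.99. After 5-FU, the ABX 5-FU mean was 2.45 times the Ctrl 5-FU mean, with single ratios from 1.79 to 3.65. On the log2(RPKM + 1) scale the change was 1.67 ± 0.16 for ABX against Ctrl and 1.27 ± 0.16 for ABX 5-FU against Ctrl 5-FU (SE, limma, 12 libraries). The difference of these changes, the interaction of antibiotics and 5-FU, was -0.40 ± 0.22.

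Between groups with and without 5-FU, Rn7sk differed less. The ABX 5-FU libraries lay below the ABX libraries without overlap, with means of 44.2 ± 5.33 and 52.3 ± 2.67 RPKM (SD, n = 3 each) and a log2 change of -0.24 ± 0.16. The Ctrl 5-FU and Ctrl libraries overlapped, with means of 18.0 ± 4.25 and 15.9 ± 2.08 RPKM (SD, n = 3 each) and a log2 change of 0.16 ± 0.16. From highest to lowest mean the order was ABX, ABX 5-FU, Ctrl 5-FU and Ctrl, and only the last pair of neighbours overlapped. In estimated reads, Rn7sk rested on 402 to 589 reads per library in ABX 5-FU, 504 to 673 in ABX, 182 to 348 in Ctrl 5-FU and 198 to 303 in Ctrl.

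**Figure D1:**
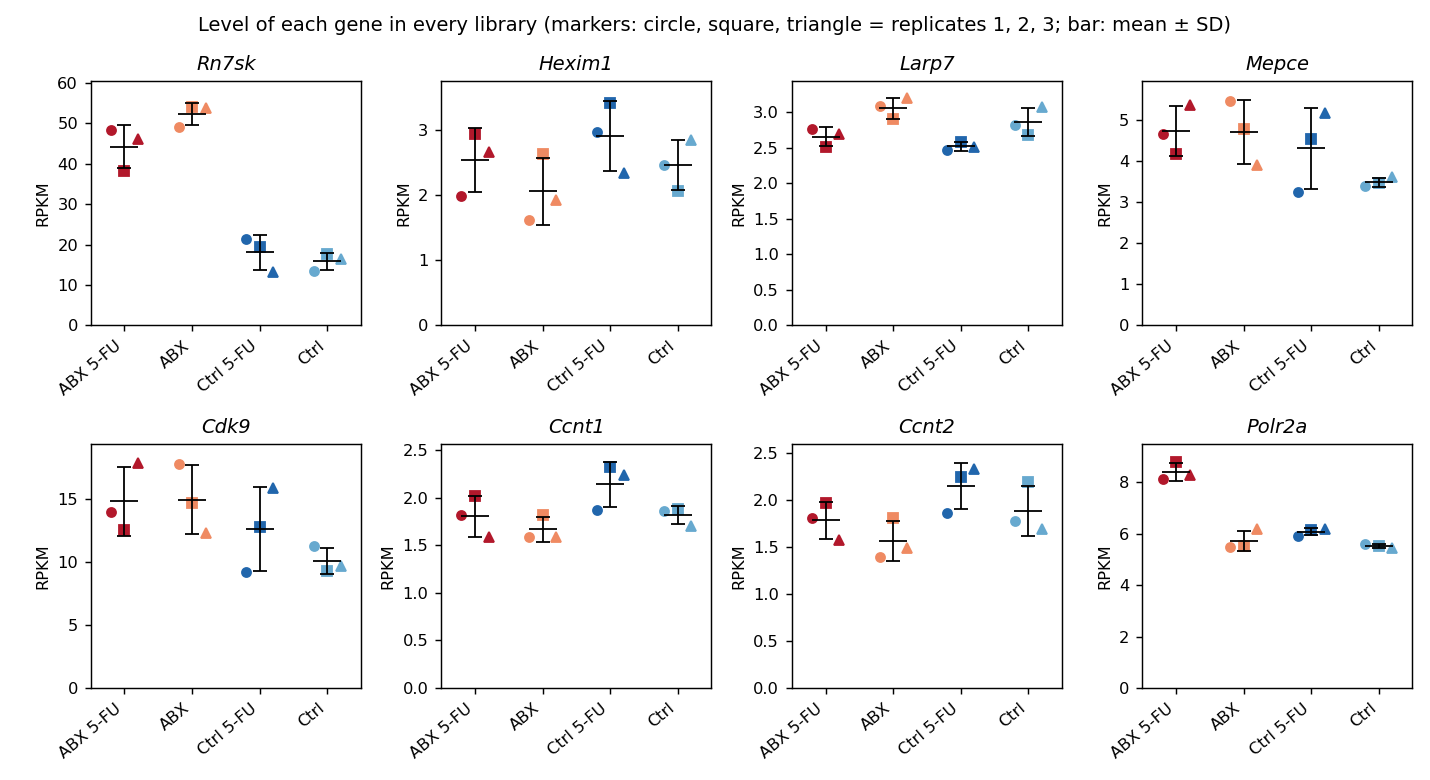
RPKM (y axes, from 0) of the 8 genes in each of the 12 libraries, by group; the bars give the mean ± SD of 3 libraries. Rn7sk separates the groups with antibiotics (38.2 to 54.0 RPKM) from those without (13.3 to 21.4 RPKM), and Polr2a separates ABX 5-FU (8.11 to 8.78 RPKM) from the other 3 groups.

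Some other noncoding RNA features also had higher values with antibiotics. Rn7s1 and Rn7s2, features for 7SL, the RNA of the signal recognition particle, had the same values in every library and measured 83.4, 76.7 and 85.7 RPKM in ABX 5-FU, 71.3, 89.8 and 106 RPKM in ABX, 49.5, 51.3 and 31.1 RPKM in Ctrl 5-FU, and 52.4, 44.1 and 44.1 RPKM in Ctrl. How reads were shared between them is not stated in the labels. The ABX mean was 1.90 times the Ctrl mean and the ABX 5-FU mean 1.86 times the Ctrl 5-FU mean, again without overlap. By limma with Benjamini-Hochberg adjustment over all 8553 genes tested, Rn7s1 did not pass 0.05 in either comparison (adjusted p = 0.0846 for ABX against Ctrl and 0.0764 for ABX 5-FU against Ctrl 5-FU). The 18S ribosomal RNA feature Rn18s-rs5, chosen after its values were seen, averaged 2008 ± 48.6 RPKM in ABX 5-FU, 2126 ± 237 in ABX, 1062 ± 98.3 in Ctrl 5-FU and 1376 ± 93.3 in Ctrl (SD, n = 3 each). It was 1.54 times as high in ABX as in Ctrl and 1.89 times as high in ABX 5-FU as in Ctrl 5-FU, in means, without overlap in either pair. Rn18s-rs5 passed 0.05 in both comparisons, which is no test of it given how it was chosen. Among the alternative settings it passed in 8 of 19 for ABX against Ctrl and in 19 of 19 for ABX 5-FU against Ctrl 5-FU.

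The ratio of Rn7sk to these RNAs differed as well. Rn7sk over Rn7s1 was 0.498 to 0.580 in ABX 5-FU and 0.508 to 0.690 in ABX libraries, against 0.378 to 0.433 in Ctrl 5-FU and 0.259 to 0.398 in Ctrl libraries. No library with antibiotics overlapped one without. By Pearson correlation of log2(RPKM + 1) over the 12 libraries, the genes most like Rn7sk were Mir6236 (r = 0.954), Dcakd (r = 0.954) and Rn7s1 (r = 0.932). These correlations are a description, since all 12 libraries share the 4 groups. Mir6236 averaged 36.1 ± 6.95 RPKM in ABX 5-FU, 43.4 ± 7.63 in ABX, 22.5 ± 3.19 in Ctrl 5-FU and 18.0 ± 2.84 in Ctrl (SD, n = 3 each). By limma, Mir6236 passed the adjustment for ABX against Ctrl and not for ABX 5-FU against Ctrl 5-FU. Because it was picked by its likeness to Rn7sk, this is no test of it. The part that RNA without poly(A) tails in the libraries, or depth, had in the Rn7sk difference was not tested.

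**Figure D2:**
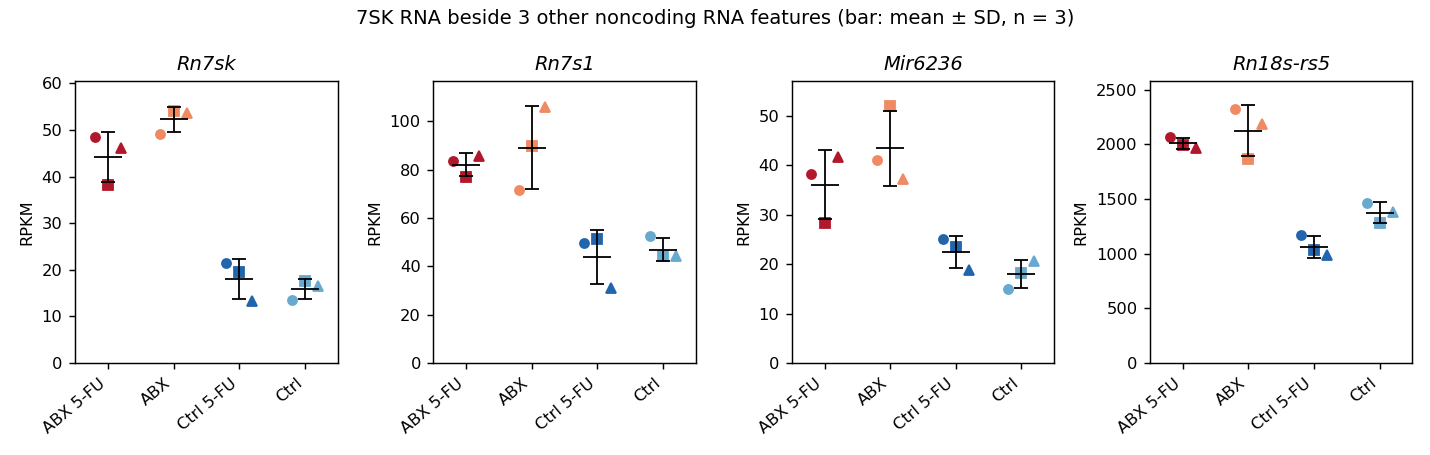
RPKM (y axes, from 0) of Rn7sk, Rn7s1, Mir6236 and Rn18s-rs5 in each library, by group, with mean ± SD of 3 libraries. In all 4 panels the libraries with antibiotics lie above those without antibiotics of the same 5-FU state, by factors of the means of 2.45, 1.86, 1.61 and 1.89 after 5-FU.

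Other small RNAs of RNA polymerase III gave few reads. Rmrp, the RNA of RNase MRP, reached at most 0.600 RPKM, Rpph1, the RNA of RNase P, at most 1.11 RPKM, and the Y RNAs Rny1 and Rny3 at most 0.959 and 1.40 RPKM. The vault RNA Vaultrc5 measured 0.542 to 3.01 RPKM in ABX 5-FU, 0.956 to 1.35 in ABX, 0.773 to 1.25 in Ctrl 5-FU and 0.803 to 3.78 in Ctrl libraries, so its groups overlapped. Of the 8 listed RNAs of this kind, 3 were tested (Rn7s1, Rn7s2 and Vaultrc5) and none was called by limma in any comparison.

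Rn7sk has many partial copies in the mouse genome. Of 134 symbols whose transcripts matched it over at least 100 bases, 133 were in the table, and none of the 130 annotated as small noncoding RNA reached 1 RPKM in any library (highest 0.999). The closest, Gm24447 on chromosome 15 (mm10, 93234363 to 93234700, plus strand), is identical over the first 241 bases and reached at most 0.146 RPKM. Summed, the copies came to 3.09% to 7.85% of the Rn7sk value in ABX 5-FU, 4.02% to 5.29% in ABX, 6.45% to 18.7% in Ctrl 5-FU and 8.07% to 18.7% in Ctrl libraries. The sources used here do not give how reads were shared between copies. The nearest gene, the long noncoding RNA C920006O11Rik, starts 280 bases from Rn7sk on the other strand and stayed between 0.888 and 2.40 RPKM.

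The transcripts of the 3 proteins that bind 7SK had log2 changes of at most 0.34 in size in the 4 comparisons. Hexim1, whose product binds 7SK and inhibits P-TEFb, is a single-exon gene at chr11:103116231-103119725 (plus strand). It measured 1.99, 2.95 and 2.67 RPKM in ABX 5-FU, 1.62, 2.63 and 1.93 in ABX, 2.97, 3.41 and 2.35 in Ctrl 5-FU, and 2.47, 2.07 and 2.85 RPKM in Ctrl libraries. Every pair of groups overlapped. Its log2 change was -0.19 ± 0.15 for ABX against Ctrl, -0.15 ± 0.15 for ABX 5-FU against Ctrl 5-FU, 0.21 ± 0.15 for ABX 5-FU against ABX and 0.17 ± 0.15 for Ctrl 5-FU against Ctrl. Rn7sk over Hexim1 was 13.0 to 24.3 in ABX 5-FU and 20.5 to 30.4 in ABX libraries, against 5.65 to 7.21 in Ctrl 5-FU and 5.49 to 8.49 in Ctrl libraries, a ratio of levels per length. The genes most like Hexim1 over the 12 libraries were Prr14 (r = 0.836), Prrg2 (r = 0.820) and Bbs10 (r = 0.812).

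Hexim2, the paralog of Hexim1 and listed among the other 7SK-bound factors, stayed below the 1 RPKM filter and was not tested. It averaged 0.849 ± 0.126 RPKM in ABX 5-FU, 0.155 ± 0.0286 in ABX, 0.499 ± 0.222 in Ctrl 5-FU and 0.324 ± 0.0907 in Ctrl (SD, n = 3 each). The ABX 5-FU libraries lay above the ABX libraries, and the ABX libraries below the Ctrl libraries, without overlap.

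Larp7, whose product protects the 3′ end of 7SK, was slightly lower after 5-FU. It measured 2.77, 2.51 and 2.69 RPKM in ABX 5-FU and 3.08, 2.90 and 3.20 in ABX, and 2.46, 2.58 and 2.51 in Ctrl 5-FU against 2.82, 2.69 and 3.08 RPKM in Ctrl libraries. Neither pair overlapped, with log2 changes of -0.15 ± 0.06 and -0.13 ± 0.06. When every library was rescaled to one total, the change for Ctrl 5-FU against Ctrl was 0.00078. Larp7 overlaps 5 microRNA genes on the other strand, and whether the counting used strand is not stated in the labels.

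Mepce, the enzyme that caps the 5′ end of 7SK, measured 4.65, 4.17 and 5.36 RPKM in ABX 5-FU, 5.46, 4.78 and 3.90 in ABX, 3.23, 4.52 and 5.16 in Ctrl 5-FU, and 3.39, 3.45 and 3.60 RPKM in Ctrl. The ABX libraries lay above the Ctrl libraries without overlap (log2 change 0.34 ± 0.14). The ABX 5-FU and Ctrl 5-FU libraries overlapped (0.12 ± 0.14), as did both pairs that compare 5-FU with no 5-FU.

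Cdk9, the kinase of P-TEFb, was the highest of the protein-coding members per length. It measured 14.0, 12.6 and 17.9 RPKM in ABX 5-FU, 17.8, 14.7 and 12.3 in ABX, 9.21, 12.8 and 15.9 in Ctrl 5-FU, and 11.3, 9.33 and 9.72 RPKM in Ctrl libraries. As with Mepce, of the 4 pairs compared only ABX and Ctrl did not overlap (log2 change 0.51 ± 0.19, 1.48 times in means). Antibiotics after 5-FU gave 0.23 ± 0.19, 5-FU with antibiotics -0.01 ± 0.19 and 5-FU without antibiotics 0.27 ± 0.19, each with overlapping libraries. In 3 of the 4 groups, all but Ctrl, Cdk9 and Mepce ranked the 3 libraries alike, and their ratio stayed between 2.70 and 3.34 in all 12. Cdk9 overlaps 2 microRNA genes on its own strand.

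The cyclins that pair with CDK9 stayed near 2 RPKM. Ccnt1, cyclin T1, averaged 1.81 ± 0.216 RPKM in ABX 5-FU, 1.67 ± 0.135 in ABX, 2.15 ± 0.236 in Ctrl 5-FU and 1.82 ± 0.0959 in Ctrl (SD, n = 3 each). Ccnt2, cyclin T2, averaged 1.79 ± 0.199 in ABX 5-FU, 1.56 ± 0.216 in ABX, 2.15 ± 0.250 in Ctrl 5-FU and 1.88 ± 0.266 RPKM in Ctrl (SD, n = 3 each). For both genes each of the 4 pairs of groups compared overlapped, and the log2 changes lay between -0.18 and 0.16. The ratio of Ccnt1 to Ccnt2 lay between 0.860 and 1.14 in all 12 libraries. Ccnt1 overlaps an antisense gene, 9330020H09Rik.

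Polr2a, the largest subunit of RNA polymerase II and the carrier of the CTD, was high in ABX 5-FU. It measured 8.11, 8.78 and 8.28 RPKM in ABX 5-FU, 5.47, 5.51 and 6.18 in ABX, 5.91, 6.12 and 6.20 in Ctrl 5-FU, and 5.62, 5.52 and 5.46 RPKM in Ctrl libraries. Each ABX 5-FU library lay above all other libraries, while the neighbouring means of Ctrl 5-FU, ABX and Ctrl overlapped one to the next. The ABX 5-FU mean was 1.47 times the ABX mean (log2 change 0.48 ± 0.06) and 1.38 times the Ctrl 5-FU mean (0.41 ± 0.06). Ctrl 5-FU lay above Ctrl by 1.10 times (0.12 ± 0.06), also without overlap, and ABX and Ctrl overlapped (0.04 ± 0.06). The interaction was 0.37 ± 0.09. The genes most like Polr2a over the 12 libraries were Rab11fip5 (r = 0.952), Lipa (r = 0.943) and Scpep1 (r = 0.942).

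**Figure D3:**
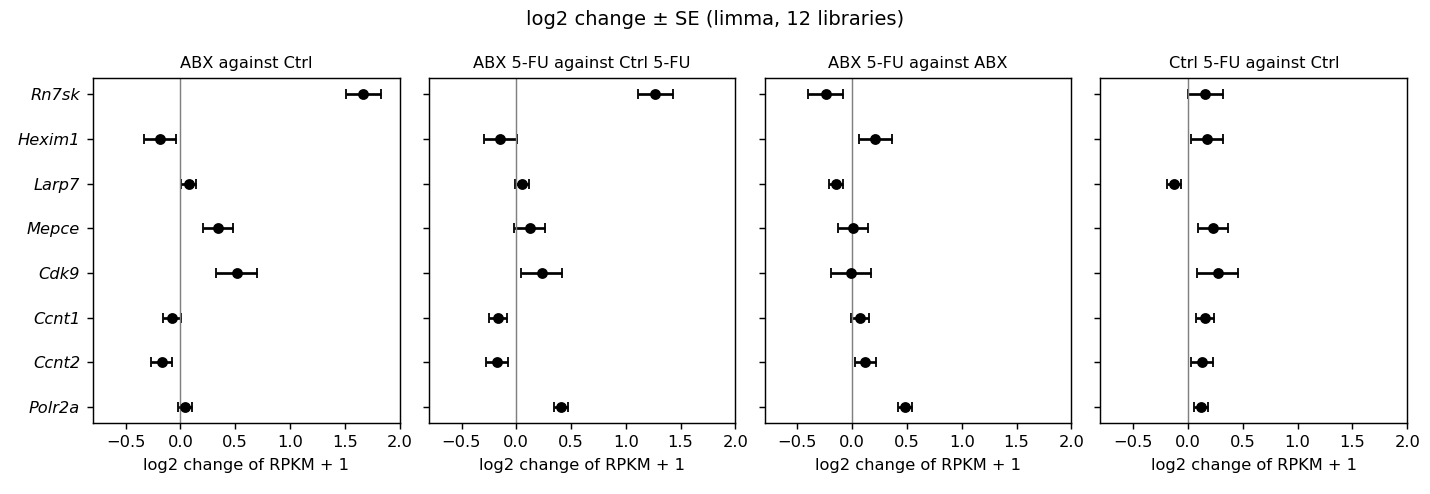
log2 change of RPKM + 1 (x axes) with its SE for the 8 genes in 4 comparisons, from limma on 12 libraries. Rn7sk stands at 1.67 and 1.27 with antibiotics, and Polr2a at 0.48 and 0.41 in the comparisons of ABX 5-FU with ABX and with Ctrl 5-FU.

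Set beside all genes, the members' counts read as follows, with a call meaning limma adjusted p below 0.05. For ABX against Ctrl, 1 of 8 was called (Rn7sk), where 0.0702% of the 8553 genes tested were called, and 3 of 8 did not overlap, where 22.1% of all genes did not. For ABX 5-FU against Ctrl 5-FU, 2 of 8 were called (Rn7sk and Polr2a) with a background of 0.117%, and 2 of 8 did not overlap with a background of 21.2%. For ABX 5-FU against ABX, 1 of 8 was called (Polr2a) with a background of 30.2%, and 3 of 8 did not overlap with a background of 49.9%. For Ctrl 5-FU against Ctrl, 0 of 8 were called with a background of 21.6%, and 2 of 8 did not overlap with a background of 37%. For the interaction, 0 of 8 were called with a background of 0.0117%. Because the members were chosen with these comparisons known, a call on a member is no test of it, and nothing is read from these counts. The median log2 change of the 8 members was 0.057, 0.089, 0.039, 0.16 and -0.053 in that order, beside 0.020, 0.014, -0.014, 0.0045 and -0.016 over all genes tested.

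Over the alternative settings, each changing 1 choice or leaving out 1 library, the log2 change of Rn7sk ran from 1.57 to 1.74 for ABX against Ctrl and from 1.07 to 1.40 for ABX 5-FU against Ctrl 5-FU. That of Polr2a ran from 0.45 to 0.64 for ABX 5-FU against ABX and from 0.38 to 0.46 for ABX 5-FU against Ctrl 5-FU. The count of 2 members called for ABX 5-FU against Ctrl 5-FU, itself no test of them, depended on the setting. Rn7sk was called in 16 of 19 alternatives and Polr2a in 7 of 19. The settings without a call on Rn7sk included the fit without ABX 5-FU replicate 1, at 1.20. Polr2a was not called when any 1 library other than Ctrl 5-FU replicate 1 (0.39) or ABX replicate 3 (0.41) was left out.

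The other genes of the pathway were taken from 7 lists with 67 genes, of which 47 passed the filter, and none of which is a member. These lists, too, were chosen with earlier results of these data known. The p-values and counts over them therefore describe these libraries and are no independent test of the lists. After 5-FU the 12 other genes named as polymerase II subunits (Polr2b to Polr2m), all of which were tested, fell or did not pass the test. Polr2a had a log2 change of 0.48 ± 0.06 with antibiotics and 0.12 ± 0.06 without. Among the others, Polr2b had a higher mean in both comparisons (4.26 against 4.02 RPKM with antibiotics and 4.11 against 3.74 without). Polr2c and Polr2m had higher means only without antibiotics, and the rest had lower means in both. In ABX 5-FU against ABX, 6 of 12 fell, 0 rose and 6 did not pass (median log2 change -0.28, beside -0.014 over all genes tested, of which 16.5% were called lower). In Ctrl 5-FU against Ctrl, 2 fell, 0 rose and 10 did not pass (median -0.18, beside 0.0045 and 11.8%). Polr2h, a small subunit shared by all 3 nuclear polymerases, averaged 7.04 ± 0.627 RPKM in ABX 5-FU and 10.9 ± 0.266 in ABX (SD, n = 3 each; log2 change -0.57 ± 0.10, adjusted p = 0.00232). It averaged 7.66 ± 0.777 RPKM in Ctrl 5-FU and 10.6 ± 1.39 in Ctrl (-0.41 ± 0.10, adjusted p = 0.0165). Polr2f, also shared by the 3 polymerases, averaged 3.40 ± 0.221 RPKM in ABX 5-FU and 5.18 ± 0.430 in ABX (-0.49 ± 0.09, adjusted p = 0.00239). Polr2d, part of the stalk of the enzyme, fell in both comparisons (-0.40 ± 0.07, adjusted p = 0.00251, with antibiotics, and -0.23 ± 0.07, adjusted p = 0.0486, without).

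Polr2a divided by the mean of the other 12 subunits was 0.704 to 0.862 in ABX 5-FU and 0.380 to 0.495 in ABX libraries, and 0.529 to 0.565 in Ctrl 5-FU against 0.425 to 0.487 in Ctrl libraries. This ratio does not depend on how a library is scaled. Its divisor is a plain mean of RPKM, so the highest genes, Polr2e and Polr2m, weigh most in it. In ABX these averaged 42.6 ± 2.33 and 30.3 ± 11.7 RPKM (SD, n = 3 each). The ABX 5-FU libraries lay above all others. When libraries were rescaled to one total, 4 of the 12 subunits fell in ABX 5-FU against ABX (median -0.13, beside 0.11 over all genes) and 0 in Ctrl 5-FU against Ctrl (median -0.016, beside 0.14).

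**Figure D4:**
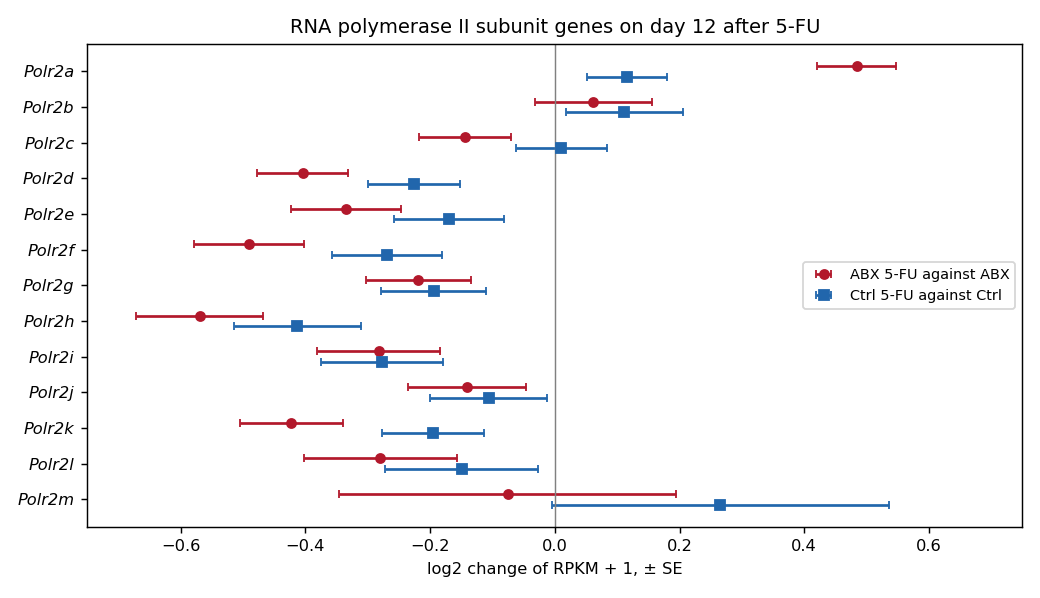
log2 change of RPKM + 1 (x axis) with its SE for Polr2a and the 12 other polymerase II subunits after 5-FU, with antibiotics (circles) and without (squares). Polr2a lies at 0.48 with antibiotics, and the median of the other subunits is -0.28 with antibiotics and -0.18 without.

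Of 15 listed genes for other proteins that bind 7SK or release P-TEFb from it, 13 were tested. In ABX 5-FU against ABX, 7 fell, 0 rose and 6 did not pass (median -0.30, beside -0.014 over all genes tested, of which 16.5% were called lower). Srsf2, a splicing factor that releases P-TEFb from 7SK at promoters, averaged 11.7 ± 2.64 RPKM in ABX 5-FU and 26.6 ± 8.72 in ABX (SD, n = 3 each; log2 change -1.09 ± 0.23, adjusted p = 0.00540). Ddx21, an RNA helicase that can free P-TEFb from 7SK, averaged 2.37 ± 0.248 RPKM in ABX 5-FU and 3.64 ± 0.307 in ABX (-0.46 ± 0.10, adjusted p = 0.00714). Hnrnpa1, which binds 7SK once P-TEFb has left, averaged 31.9 ± 3.93 RPKM in ABX 5-FU and 48.6 ± 7.21 in ABX (-0.59, adjusted p = 0.00759). In Ctrl 5-FU against Ctrl, 2 of 13 fell and 0 rose (median -0.017, beside 0.0045 and 11.8%). These were Hnrnpa1, at 29.4 ± 4.11 RPKM in Ctrl 5-FU and 40.7 ± 3.96 in Ctrl (-0.46 ± 0.13, adjusted p = 0.0305), and its relative Hnrnpa2b1, at 84.4 ± 4.75 RPKM in Ctrl 5-FU and 102 ± 6.74 in Ctrl (-0.28 ± 0.07, adjusted p = 0.0198). Rescaled to one total, this list had 3 lower and 1 higher in ABX 5-FU against ABX (median -0.14) and 0 lower and 2 higher in Ctrl 5-FU against Ctrl (median 0.13).

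Of 6 tested DSIF and NELF genes, 1 rose and 1 fell in ABX 5-FU against ABX, and 0 rose and 1 fell in Ctrl 5-FU against Ctrl, where 30.2% and 21.6% of all genes were called. Nelfe, a subunit of NELF, which holds paused polymerase, fell in both comparisons, with 6.32 ± 0.229 RPKM in ABX 5-FU and 9.81 ± 0.420 in ABX (log2 change -0.56 ± 0.09, adjusted p = 0.00110) and with 6.95 ± 0.882 RPKM in Ctrl 5-FU and 9.68 ± 0.711 in Ctrl (-0.43 ± 0.09, adjusted p = 0.00691). Supt4a, a subunit of DSIF, rose with antibiotics (8.64 ± 0.536 RPKM in ABX 5-FU and 6.73 ± 0.517 in ABX, 0.32 ± 0.08, adjusted p = 0.0145). No other gene of the 6 tested in the DSIF and NELF list was called. Of 3 tested super elongation complex genes, only Mllt3 was called, as higher in both comparisons. It encodes a reader of acetylated histones and is also in the HSC marker list. It averaged 1.04 ± 0.0480 RPKM in ABX 5-FU and 0.495 ± 0.0503 in ABX (log2 change 0.45 ± 0.09). Without antibiotics it averaged 0.955 ± 0.207 RPKM in Ctrl 5-FU and 0.485 ± 0.0955 in Ctrl (0.39 ± 0.09). No Ctrl or ABX library reached 1 RPKM (highest 0.581 and 0.545), so Mllt3 passed the filter only through libraries with 5-FU. Its calls are in the counts below but are no test of it.

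Of 7 tested PAF1 complex and elongation genes, 1 rose and 1 fell in ABX 5-FU against ABX, where 30.2% of all genes tested were called. These were Supt6, a histone chaperone that travels with polymerase (0.20 ± 0.07, adjusted p = 0.0468), and the PAF1-associated gene Wdr61 (-0.24 ± 0.06, adjusted p = 0.0158). None of the 7 was called in Ctrl 5-FU against Ctrl, where 21.6% of all genes tested were. The same shares of all genes stand beside the lists that follow. Among 3 tested genes of other transcriptional kinases, Ccnh, the cyclin of the CDK7 kinase, fell in both comparisons (-0.36 ± 0.07, adjusted p = 0.00432, with antibiotics, and -0.31 ± 0.07, adjusted p = 0.0117, without). Its partner Cdk7 rose in ABX 5-FU against ABX (0.22 ± 0.07, adjusted p = 0.0485). Of 3 tested genes for phosphatases that act on the CTD, only Ctdsp2 was called. It rose in both comparisons, with 11.9 ± 1.21 RPKM in ABX 5-FU and 8.54 ± 0.931 in ABX (0.43 ± 0.14, adjusted p = 0.0376) and with 11.3 ± 2.65 RPKM in Ctrl 5-FU and 7.39 ± 0.477 in Ctrl (0.53 ± 0.14, adjusted p = 0.0216).

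Over the 47 tested genes of these lists, 5 rose and 16 fell in ABX 5-FU against ABX, and 2 rose and 6 fell in Ctrl 5-FU against Ctrl, beside 13.7% higher and 16.5% lower, and 9.74% higher and 11.8% lower, of all genes tested. Rescaled to one total, the split was 7 higher and 9 lower with antibiotics and 9 higher and 1 lower without, as the median log2 change of all genes moved to 0.11 and 0.14. Deposited RPKM sums ran from 142127 to 176924 per library and were lower after 5-FU. Of the genes called, 12 of 21 with antibiotics and 3 of 8 without were also called when any 1 of the 12 libraries was left out. Supt6, Cdk7, and Polr2d without antibiotics, held their call in 2, 3 and 2 of those 12 fits. Of the other genes named, without antibiotics Polr2h and Hnrnpa1 lost theirs without Ctrl replicate 1, Ctrl replicate 3 or Ctrl 5-FU replicate 3 (Hnrnpa1 also without Ctrl 5-FU replicate 1), Hnrnpa2b1 without Ctrl replicate 3 or Ctrl 5-FU replicate 2 or 3, and Ctdsp2 without Ctrl replicate 1 or Ctrl 5-FU replicate 3. With antibiotics, Supt4a lost its call without ABX replicate 2 or ABX 5-FU replicate 1, Wdr61 without ABX replicate 1 or ABX 5-FU replicate 2, and Ctdsp2 in 5 of the 12 fits.

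No gene of the lists was called for antibiotics, either in ABX against Ctrl or in ABX 5-FU against Ctrl 5-FU, or for the interaction (limma, 0 of 47 each). Of all genes tested, 0.0702%, 0.117% and 0.0117% were called in that order, so 0 of 47 lies near the share of all genes. At an unadjusted p below 0.05, 1519, 1275 and 710 of all 8553 genes passed in those 3 comparisons. Of 8 marker lists, the HSC and the T and NK cell sums did not overlap between groups with and without 5-FU. Summed RPKM of the 11 HSC markers was 198 to 223 in ABX 5-FU and 150 to 188 in ABX, and 216 to 234 in Ctrl 5-FU against 171 to 190 in Ctrl. The T and NK cell sum was almost all 1 gene, Klrb1c, at 5.26 to 6.20 RPKM in ABX 5-FU and 0.579 to 0.790 in ABX, and at 4.31 to 6.41 in Ctrl 5-FU against 0.645 to 1.25 in Ctrl, while Cd3d stayed at or near 0 and the 4 genes named above were at 0. The 7 erythroid markers summed to 167 to 509 RPKM in ABX 5-FU and 40.1 to 58.1 in ABX, without overlap, and to 144 to 230 in Ctrl 5-FU against 28.6 to 305 in Ctrl, with overlap. The committed progenitor markers, at most 2.12 RPKM in sum, likewise did not overlap with antibiotics and overlapped without. The neutrophil and monocyte sums overlapped in both pairs, at 114 to 134 RPKM in ABX 5-FU and 100 to 126 in ABX, and at 131 to 398 in Ctrl 5-FU against 123 to 136 in Ctrl. The B cell, macrophage, and stromal and endothelial sums also overlapped in both pairs. Between groups with and without antibiotics, the committed progenitor sum was 1.44 to 1.51 RPKM in ABX and 0.780 to 1.20 in Ctrl, without overlap. That sum overlapped between ABX 5-FU and Ctrl 5-FU, and the other sums overlapped in both of these pairs. The part of the marker sums in the 5-FU and antibiotic differences was not tested. An effect of the i7 index, which differed between libraries with and without 5-FU, cannot be told apart from 5-FU.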

How the data were processed

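HSC libraries were made, per the labels' protocols, from total RNA (RNeasy Plus Micro) with SMART-Seq v4 and Nextera XT. STAR 2.5.3a, Partek and mm10 are named in the submitters' processing notes. The authors deposited RPKM for 46986 features in 12 libraries, with 0.0001 in place of 0. The sources used here do not give the counting rule, strand setting, annotation release or sort gates.

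The members and lists were chosen with earlier results of these data known. RPKM values were turned into log2(RPKM + 1), and 8553 genes reaching 1 RPKM in 3 or more libraries were fitted with limma 3.58.1 (R 4.3.3): 4 group means, 8 residual degrees of freedom, intensity trend, two-sided tests, Benjamini-Hochberg adjustment within each comparison over all genes tested, calls at 0.05. Tested on simulated data, the fit recovered 196 of 200 changed genes with 6 false calls. Recovery at the log2 changes and RPKM levels of the genes named above was not tested separately. Replicate numbers follow accession order; same-numbered ABX and Ctrl libraries, and same-numbered ABX 5-FU and Ctrl 5-FU libraries, share an i7 index, which was tried as a block for the antibiotic comparisons and the interaction. Depth was estimated from the value of 1 read in genes with a single transcript. Copies of 7SK were found in GENCODE M21 transcripts with BLAST+ 2.17.0. Coordinates are those of the table (mm10). Per comparison, up to 3 called genes per list and direction were named by smallest p.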

Additional observations from a re-analysis of the deposited data

Results flagged for a closer look

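Syncrip, which encodes an RNA-binding protein found on 7SK, stood out because its libraries lay on opposite sides after 5-FU with and without antibiotics. It measured 3.76, 3.78 and 4.54 RPKM in ABX 5-FU against 5.55, 5.22 and 5.26 RPKM in ABX libraries, and 4.78, 4.24 and 4.61 RPKM in Ctrl 5-FU against 4.23, 3.99 and 3.75 RPKM in Ctrl libraries. Neither pair overlapped, where 49.9% of all genes tested did not overlap with antibiotics and 37% did not without. Without antibiotics the nearest libraries lay at 4.24 RPKM in Ctrl 5-FU and 4.23 RPKM in Ctrl. The share of all genes that lay on opposite sides in this way was not counted. The log2 change was -0.34 ± 0.08 with antibiotics (limma adjusted p = 0.00784) and 0.15 ± 0.08 without (adjusted p = 0.180), so only the fall with antibiotics passed. Rescaled to one total, the fall did not pass (-0.20, adjusted p = 0.111) and the rise without antibiotics did (0.30, adjusted p = 0.0295). Their difference was -0.49 ± 0.11, and the interaction did not pass limma's adjustment over all genes (adjusted p = 0.500). It was the 1 gene of the lists to be singled out in this way.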

How the results depend on the processing

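Up to 19 alternatives were tried. The count of pathway genes called in Ctrl 5-FU against Ctrl, 8 as reported, was 5 with no filter on low values and 1 when only the groups compared were fitted. It ran from 4 to 10 when 1 library was left out, with 4 without Ctrl replicate 1, Ctrl replicate 3 or Ctrl 5-FU replicate 3. For ABX 5-FU against ABX, 21 as reported, the count ran from 13 (without ABX replicate 2) to 20 when 1 library was left out. For ABX against Ctrl, 0 as reported, it ran from 0 to 1, with 1 without ABX replicate 3. For ABX 5-FU against Ctrl 5-FU and the interaction it was 0 in every alternative. The cause of these differences was not tested. All 29 calls on pathway genes kept their direction in every alternative. Over all genes, 21.6% were called in Ctrl 5-FU against Ctrl and 9.49% when only those groups were fitted, and with the i7 index as a block 0.234% were called for ABX against Ctrl and 0.257% for ABX 5-FU against Ctrl 5-FU. Each group has 3 libraries, a left-out library leaves 2, and features that failed the 1 RPKM filter, such as Hexim2, were not tested. Blocking on the i7 index pairs libraries of the same number with and without antibiotics; the labels do not say that an index marks a shared animal, batch or day, and no index is shared between libraries with and without 5-FU, so the 5-FU comparisons have no such fit.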
